A study of Mus musculus with 10 samples.

Results

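The Taar7 subfamily is the largest group of closely related genes among the trace amine-associated receptors (TAARs) of the mouse. Its members were the rows Taar7a, Taar7b, Taar7d, Taar7e and Taar7f of the count table, taken by name, which makes 5 of 24421 rows, and their sum in each library was analysed as well. The libraries, 10 in number, were made from the main olfactory epithelium (MOE) dissected whole, where the olfactory sensory neurons (OSNs) of the nose reside, of animals aged 14 days whose strain the labels give as C57BL/6. They came from a TAAR enhancer 1and2 double knockout line, and the comparison asked how far the receptor genes depend on both enhancers. WT mice (n = 3) had both enhancers on both alleles, het mice (n = 3) lacked both enhancers on 1 allele, and homo mice (n = 4) lacked them on both alleles. All 3 genotypes shared the labelled strain, age and tissue, and no other treatment or allele is given. The methods place the enhancer deletion in C57BL/6J zygotes, and describe the mouse lines used in general as being on mixed backgrounds that include C57BL/6J. The study describes 1 double knockout line, so that a change specific to this line cannot be told apart from the deletion. Per the study, enhancer 1 lies between Taar1 and Taar2, and enhancer 2 lies between Taar6 and Taar7a, next to the subfamily.

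TAARs are G protein-coupled receptors that detect volatile amines. As with odorant receptors, a mature OSN usually expresses a single receptor gene from 1 allele, and TAAR neurons signal through the same cAMP cascade as other OSNs, with the G protein subunit Gnal, the cyclase Adcy3 and the channel subunit Cnga2. The TAAR7 receptors belong to the clade known for tertiary amines, and Taar7f encodes a receptor that responds to N-methylpiperidine. Because TAAR neurons are rare among OSNs, their receptor transcripts are scarce in RNA from the whole tissue.

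In the annotation of the mm10 assembly (GENCODE M21), each Taar7 gene was 1 exon of 1077 bases, the coding length, with no UTR. Taar7a lay at chr10:23992405-23993481 on the minus strand, and Taar7b at chr10:23999939-24001015, Taar7d at chr10:24027222-24028298, Taar7e at chr10:24037614-24038690 and Taar7f at chr10:24049510-24050586 on the plus strand. The pseudogene Taar7c-ps sits between Taar7b and Taar7d. The 5 genes spanned 58.18 kb, and 6.758 kb separated Taar6 from Taar7a.

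Within these coding models, the sequences limit how far reads can tell the 5 rows apart. The study's in situ probes for single Taar7 genes lie in untranslated regions (UTRs), which these models lack. Reads from UTRs were not considered here. The coding sequences were 91.7% identical for Taar7a and Taar7f, the most distant pair with 89 differences, and 95.4% identical for Taar7e and Taar7f, the closest pair with 50 differences. Of the 1077 coding positions, 140 differed among the 5 genes. Taar7a held a base found in no other member at 32 of them, Taar7b at 22, Taar7f at 20, Taar7d at 16 and Taar7e at 12. Other members could differ from one another at these positions too. The differences were densest at the 5′ end, where 31 of the first 60 coding bases were variable. These first 60 bases are given from the start codon, with capitals where a gene departs from the most common base of the subfamily, to show where reads separate the members.
Taar7a: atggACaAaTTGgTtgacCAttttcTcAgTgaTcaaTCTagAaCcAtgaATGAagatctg
Taar7b: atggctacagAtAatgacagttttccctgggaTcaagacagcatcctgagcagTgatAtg
Taar7d: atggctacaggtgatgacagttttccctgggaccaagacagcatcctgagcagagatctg
Taar7e: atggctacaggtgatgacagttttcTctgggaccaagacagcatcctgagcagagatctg
Taar7f: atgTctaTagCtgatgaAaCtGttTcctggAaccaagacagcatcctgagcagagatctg

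Taar7a departed from the most common base at 23 of these 60 positions, Taar7f at 8, Taar7b at 5, Taar7e at 1 and Taar7d at none (0). At the other extreme, a run of 77 bases was the same in all 5 genes. It covers coding positions 688 to 764, at chr10:24027909-24027985 on the plus strand in Taar7d, and a read from within it cannot be assigned to a member.
Shared run: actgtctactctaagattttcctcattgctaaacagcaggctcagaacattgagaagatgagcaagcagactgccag

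Neither the read length nor the handling of multi-mapped reads is given in the sources used here. The share of each coding sequence open to unique assignment was therefore computed for 3 lengths. A stretch of 50 bases had no perfect match in another annotated transcript from 61.4% of the start positions of Taar7a, 59.6% of Taar7b, 70.5% of Taar7d, 46.1% of Taar7e and 48.7% of Taar7f. At 150 bases these shares were 96.4%, 96.4%, 97.1%, 80.1% and 78.9%. Taar7e and Taar7f were the least separable at both lengths, and 43.1% of their 50-base stretches and 18.3% of their 150-base stretches were common to both. The pseudogene Taar7c-ps, which is none of the 5 rows, was 91.5% to 93.5% identical to them and held 15.8% (Taar7a) to 33.2% (Taar7e) of their 50-base stretches and at most 3.99% of their 150-base stretches, so the sum may also have lost or gained reads through it. Beyond the pseudogene, at most 0.195% of the 50-base stretches of a member matched any other annotated gene, and none (0%) of the 150-base stretches did. Of the 9 other olfactory Taar genes Taar6 was the closest, with at most 70.2% identity to a member.

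**Figure D1:**
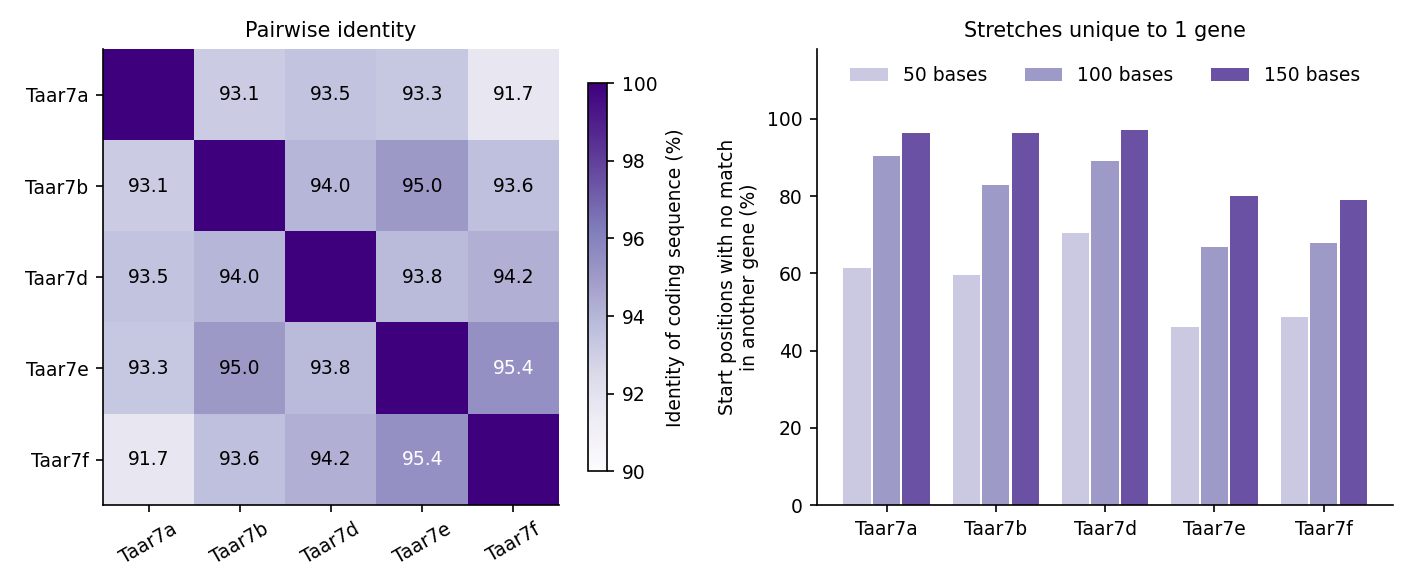
Left, identity of the coding sequences for each pair of Taar7 genes in percent, from 91.7% (Taar7a and Taar7f) to 95.4% (Taar7e and Taar7f). Right, percent of start positions in each gene from which a stretch of 50, 100 or 150 bases has no perfect match in another annotated transcript. Taar7e and Taar7f have the lowest shares at every length.

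Total counts per library ranged from 21423861 to 27712948, and no library had to be set aside as a copy of another. Mature OSN markers (Omp, Cnga2, Gnal, Adcy3, Stoml3 and Ano2) were detected in every library, 6 of 6, and summed to 8440 to 9280 CPM (counts scaled to a library total of 1000000) in WT, 8240 to 9460 in het and 7880 to 9150 in homo libraries. Markers of the dorsal zone, where most TAAR neurons lie, summed to 587 to 750 CPM in WT, 660 to 774 in het and 640 to 780 in homo libraries. Bone markers, from the turbinates, were more variable (2100 to 4020 CPM in WT, 1520 to 3030 in het and 2700 to 3410 in homo libraries), the olfactory bulb markers reached 21.5 CPM at most, and the 2 globin rows used as blood markers, which have near-identical copies, were listed at 0 in all 10 libraries. Immature OSN markers summed to 757 to 964 CPM in WT, 717 to 935 in het and 691 to 821 in homo libraries, basal cell markers to 153 to 188 CPM over all libraries, and markers of ciliated respiratory cells to 178 to 250. Markers of sustentacular cells, the supporting cells of the epithelium, were the one list in which het libraries (3390 to 3620 CPM) lay wholly above WT libraries (2950 to 3270 CPM), with homo libraries at 3100 to 3550. The part of these other cell types in the results was not tested.

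All 5 Taar7 genes were expressed in every WT and het library and were listed at 0 in every homo library. The subfamily summed to 1375 counts over the 3 WT libraries and 1248 over the 3 het libraries, against 0 over the 4 homo libraries. The sum was 461, 510 and 404 counts in the WT libraries, or 17.2, 19.9 and 17.5 CPM, with a mean of 18.2 ± 1.5 CPM (SD, n = 3). It was 386, 443 and 419 counts in the het libraries, or 16.9, 18.6 and 17.0 CPM, with a mean of 17.5 ± 0.951 CPM (SD, n = 3). A count of 0 in a homo library allows up to 3 counts, which is 0.108 to 0.14 CPM at these depths and covers counting error only. Against this limit the sum was at least 143-fold lower in homo than in WT libraries and at least 138-fold lower than in het libraries.

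For all 5 members every homo library lay below every WT and het library, as was the case for 1.85% of all genes tested in homo against WT and 1.89% in homo against het. The WT and het libraries overlapped for each member. Over all genes tested, het libraries were lower without overlap for 2.28% and higher for 2.94%. Overlap of all 5 members therefore does not set them apart. Taar7a had 98, 141 and 85 counts in the WT libraries and 71, 68 and 94 in the het libraries. WT replicate 2 held the most of these 6 values, 5.51 CPM against 3.66 and 3.67 in the other WT libraries. Taar7b was the least abundant member, at 84, 60 and 63 counts in the WT libraries against 57, 69 and 64 in the het libraries. Taar7b was also the steadiest, with a coefficient of variation of 14.5% in WT and 7.82% in het libraries, close to or below the 12% and 12.6% that counting alone gives.

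For Taar7d the WT libraries gave 109, 127 and 68 counts, and the het libraries 73, 123 and 91. Its spread of 25.4% and 25.5% was the widest of the subfamily, and both genotypes covered much the same range, 2.94 to 4.97 and 3.20 to 5.17 CPM. Taar7e counts were 65, 93 and 76 for WT, and 95, 104 and 89 for het. On the CPM scale its lowest het library (3.62) lay just under its highest WT library (3.64). Taar7f counts were 105, 89 and 112 for WT, and 90, 79 and 81 for het, where 1 het library lay above the lowest of the WT libraries.

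**Figure D2:**
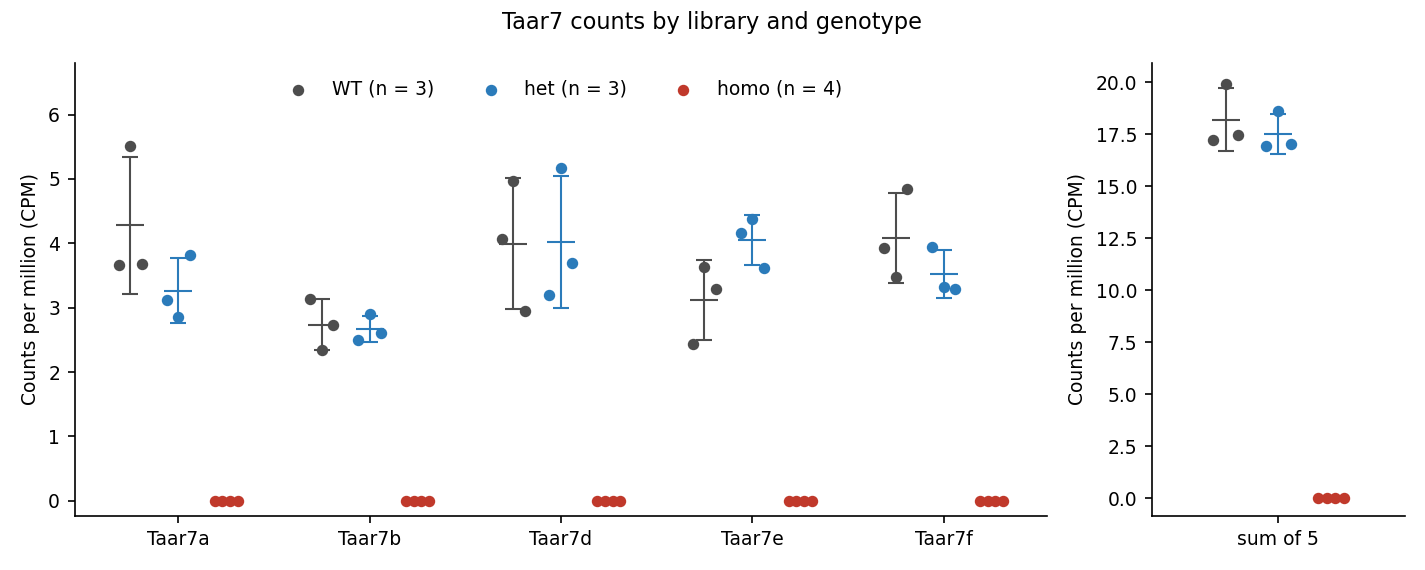
CPM of each Taar7 gene (left) and of the sum of the 5 genes (right) in WT (n = 3), het (n = 3) and homo (n = 4) libraries. Points are single libraries, and bars are the mean ± SD. WT and het libraries lie between 2.35 and 5.51 CPM for each gene, and all homo libraries lie at 0.

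With both enhancers deleted on both alleles, all 5 Taar7 genes fell. Relative to WT, homo libraries were at least 33.7-fold lower for Taar7a, 32.1-fold lower for Taar7f, 31.4-fold lower for Taar7d, 24.5-fold lower for Taar7e and 21.5-fold lower for Taar7b. These limits follow the level of each gene in WT, since every homo value was 0, and give no order of response. By edgeR's quasi-likelihood test with Benjamini-Hochberg adjustment over all 17197 genes tested, the adjusted p ranged from 8.63e-07 (Taar7f) to 2.05e-06 (Taar7b and Taar7d), and for the sum of the 5 genes it was 1.83e-10. Over all genes tested 0.0698% were called, 12 genes that all fell, and 5 of the 12 were the Taar7 genes. The remaining 7 were the other olfactory Taar genes with enough counts to be tested. The median log2 fold change over all genes tested was 0.00011.

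Relative to het libraries, homo libraries were at least 25.7-fold lower for Taar7a, 21-fold lower for Taar7b, 31.7-fold lower for Taar7d, 31.9-fold lower for Taar7e and 27.7-fold lower for Taar7f. The adjusted p ranged from 9.86e-07 to 2.31e-06 for single genes and was 2.06e-10 for the sum (edgeR). In this comparison, which shares the homo libraries with the one above, 0.0756% of the genes tested were called (0.0698% in the lower direction). All 12 genes that fell were again olfactory Taar genes, and the single gene that rose was the osteocalcin copy Bglap3, named after its value was seen. Bglap3 was called in only 2 of the 10 fits that left out a library and in 4 of 9 other alternatives. With the replicate number as a block, 19 genes were called between homo and WT and 24 between homo and het libraries, and the Taar7 genes among them were the 5 named above. Homo libraries did not pair by number with WT or het libraries, so the block has no shown basis in these contrasts.

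The 6 libraries with at least 1 intact allele were also compared with the 4 homo libraries as 1 group. The Taar7 sum was lower in all 4, with p = 0.00952 by an exact two-sided permutation test on the log2(CPM + 0.1) scale, the smallest p that 4 libraries against 6 can give. The size of the difference on that scale is set by the pseudocount (-7.49 with 0.1 and -5.20 with 0.5), since every homo value was 0. In RNA from whole tissue, fewer neurons that express a gene and less RNA per neuron cannot be told apart. The study also counted cells by in situ hybridization in this line, and reports none positive for its shared Taar7 probe in homo mice.

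With both enhancers deleted on 1 allele, no change of the Taar7 genes was detected, and the sum stayed near the WT level. The sum in het libraries was 96.3% of WT, with a 95% interval of 78.2% to 118.5%, a log2 fold change of -0.06 ± 0.14 (SE) and an adjusted p of 0.9996 by edgeR. The same fit was tested against a log2 fold change of -1, the value that a single active allele at an unchanged output would give. The sum lay 0.94 above that value on the log2 scale (unadjusted p = 1.04e-05, edgeR). The interval excludes a halving of the sum, and it leaves room for a fall to 78.2%. Within the 3 pairs of WT and het libraries that share a number the sum in CPM was lower in het in 3 of 3, by a mean of -0.05 on the log2 scale (exact two-sided sign-flip permutation p = 0.25, the smallest that 3 pairs allow).

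The single genes were measured less precisely than their sum. Taar7a in het libraries was 76.2% of WT, with a 95% interval of 51.6% to 112.5%. Its log2 fold change of -0.39 became -0.17 without WT replicate 2 and -0.51 without het replicate 3. Taar7f was at 86.4% (60% to 124.2%), Taar7b at 97.4% (65.1% to 145.9%), Taar7d at 100.6% (66.7% to 151.9%) and Taar7e at 130.2% (89.0% to 190.4%). The adjusted p was 0.9996 for each (edgeR). Thus 3 of the 5 values were below WT and 2 were above it, with a median log2 fold change of -0.04 over the members and -0.00089 over all genes tested, and the directions of the single genes are not separated from 0.

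Set against a halving, each member lay above it. Taar7e differed from the 1-allele value by 1.38 on the log2 scale (unadjusted p = 0.000103), Taar7d by 1.01 (unadjusted p = 0.00274), Taar7b by 0.96 (unadjusted p = 0.00322) and Taar7f by 0.79 (unadjusted p = 0.00614), all by edgeR. Taar7a came closest to a halving, 0.61 above it with an unadjusted p of 0.0358 in edgeR. This call on Taar7a did not hold in 4 of the 6 fits that left out a WT or a het library. The unadjusted p was 0.116 without WT replicate 1, 0.113 without WT replicate 3, 0.0563 without het replicate 1 and 0.130 without het replicate 3.

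Over all genes, 0% were called between het and WT libraries (0 of 17197 by edgeR), and DESeq2 and limma also called 0. At an unadjusted p under 0.05 edgeR counted 330 genes, 1.92% of those tested, and none (0) of the 5 Taar7 genes was among them. WT and het replicates of the same number deviated together, and with the replicate number as a block in a fit of WT and het libraries alone, 3 genes were called. These were Fos, Crisp1 and Eps8l1, named after their values were seen, and no Taar7 gene was called. The sum stayed at a log2 fold change of -0.05 in that fit (adjusted p = 0.934).

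**Figure D3:**
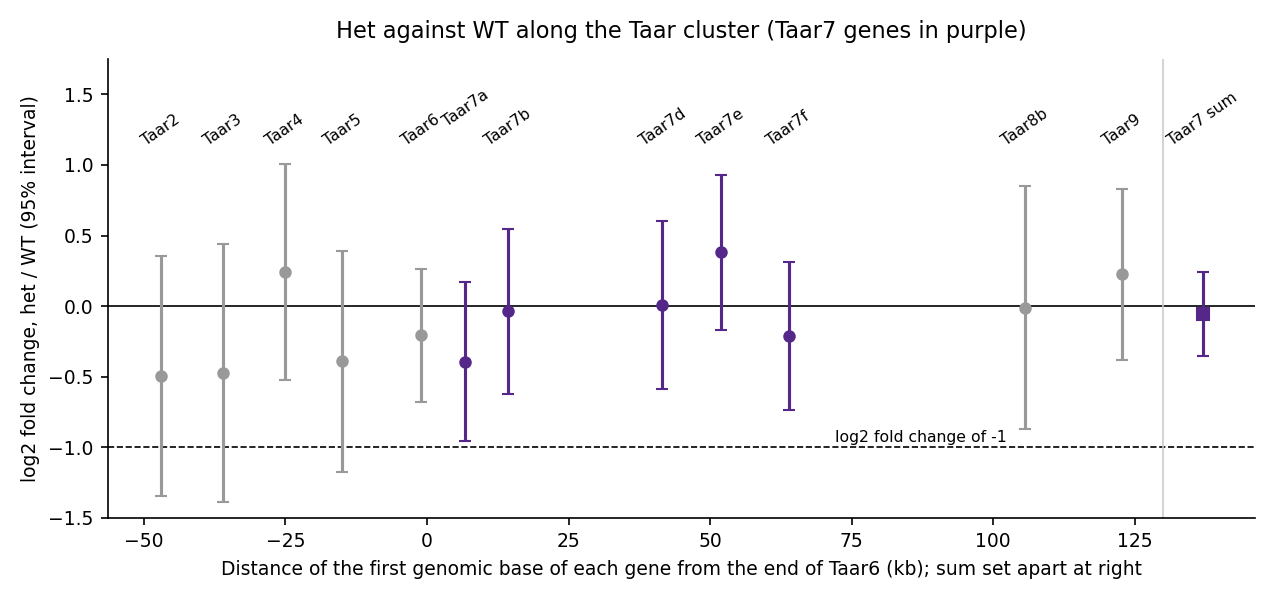
Log2 fold change of het against WT with its 95% interval for each Taar gene tested, with the Taar7 genes and their sum in purple. Genes are placed by the distance in kb of their lowest genomic coordinate from the highest coordinate of Taar6. The dashed line marks a log2 fold change of -1. The intervals of all 5 Taar7 genes and of the sum hold 0 and lie above the dashed line, that of Taar7a closest to it (lower end -0.96).

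Along the cluster the het values rose from Taar7a to Taar7e and fell again at Taar7f, an order that was not tested. By lowest genomic coordinate, Taar7a and Taar7b, the members nearest to enhancer 2, lie 6.76 and 14.3 kb above the highest coordinate of Taar6. For Taar7a, on the minus strand, this lowest coordinate is the end of its coding sequence. Taar7a and Taar7b had log2 fold changes of -0.39 and -0.04. Taar7d, Taar7e and Taar7f, at 41.6, 52.0 and 63.9 kb, had log2 fold changes of 0.01, 0.38 and -0.21. Every one of these values was within 2 standard errors of 0, the SEs being 0.24 to 0.28.

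The make-up of the Taar7 sum was much alike in WT and het libraries. Taar7a gave 21.3%, 27.6% and 21% of the sum in the WT libraries and 18.4%, 15.3% and 22.4% in the het libraries. Taar7b gave 15.2% ± 3.25 of the sum in WT and 15.2% ± 0.409 in het libraries (SD, n = 3 each), Taar7d 21.8% ± 4.34 and 22.8% ± 4.52, and Taar7f 22.7% ± 5.14 and 20.2% ± 2.83. For these 4 members the WT and het shares overlapped.

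Taar7e was the exception, with 14.1%, 18.2% and 18.8% of the sum in the WT libraries and 24.6%, 23.5% and 21.2% in the het libraries. The 3 het shares lay above the 3 WT shares, and the means differed by 6.06 percentage points. With 3 libraries against 3, p was 0.1 by an exact two-sided permutation test, which is the lowest value this design allows, and an adjusted p of 0.5 over the 5 members, so the difference does not pass. Paired by replicate number, both the share and the CPM of Taar7e were higher in het libraries in 3 of 3 pairs (exact sign-flip permutation p = 0.25 for each, again the smallest possible). Shares of 1 sum are tied to each other. Taar7e and Taar7f had the fewest unique stretches, and whether this bears on the difference was not tested.

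**Figure D4:**
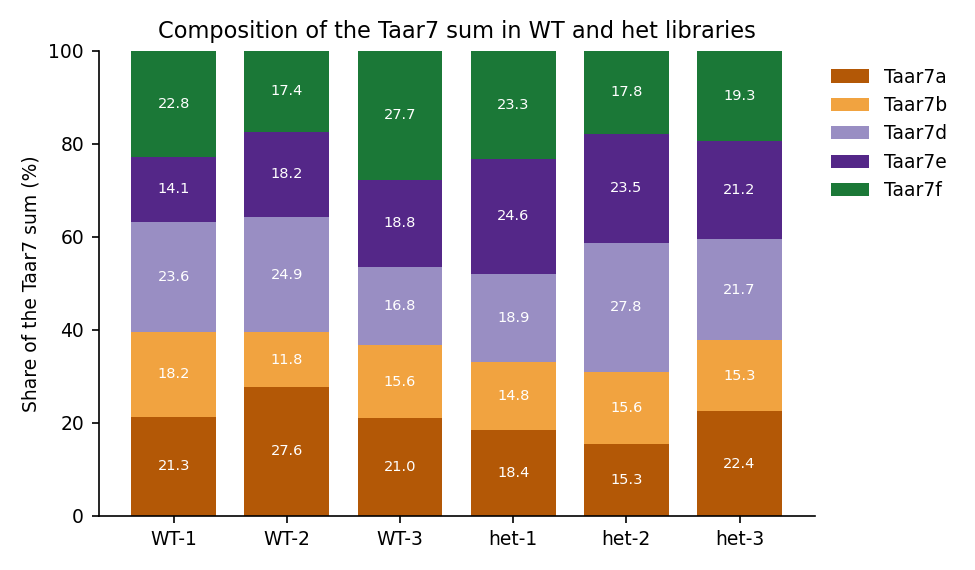
Share of each gene in the Taar7 sum in percent, for each WT and het library. Homo libraries had no Taar7 count and are not drawn. Taar7e takes 14.1% to 18.8% in WT and 21.2% to 24.6% in het libraries, whereas the shares of the other members overlap between genotypes.

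The study's in situ probes place Taar7a and Taar7b in the ventral zone of the MOE, Taar7e and Taar7f in the dorsal zone, and Taar7d in both. This splits the subfamily by zone, unlike most Taar genes, which are dorsal. Ventral members made up 51.7%, 52.5% and 44.1% of the counts of the 4 zone-assigned genes in the WT libraries, and 40.9%, 42.8% and 48.2% in the het libraries. The means were 49.4% ± 4.66 and 44.0% ± 3.77 (SD, n = 3 each), a difference of -5.45 percentage points with overlapping groups (exact two-sided permutation p = 0.2). In homo libraries both zones' members were at 0. Ventral zone markers (Ncam2 and Nfix) summed to 200 to 250 CPM in WT, 207 to 228 in het and 206 to 223 in homo libraries.

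Levels of different genes were compared as CPM per kb of coding length. In WT libraries the order was Taar7a (3.98 ± 0.989), Taar7f (3.79 ± 0.645), Taar7d (3.71 ± 0.943), Taar7e (2.89 ± 0.577) and Taar7b (2.54 ± 0.368), in CPM per kb (SD, n = 3). In het libraries it was Taar7e (3.76 ± 0.362), Taar7d (3.74 ± 0.951), Taar7f (3.27 ± 0.343), Taar7a (3.03 ± 0.463) and Taar7b (2.48 ± 0.194). Taar7b came last in both genotypes, whereas Taar7e moved from the fourth to the first place and Taar7a from the first to the fourth, within differences that do not pass a test.

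Over the 6 WT and het libraries none (0) of the 10 pairs of members passed an exact sign-flip permutation test of the level after adjustment over the 10 pairs. With 6 libraries a pair can pass only if at least 7 of the 10 reach the smallest p, so this does not show the levels to be alike, and neighbours in the order were not separated. The nearest to a difference were Taar7b against Taar7d and Taar7b against Taar7f. Taar7b was lower than both in 6 of 6 libraries, by log2 ratios of -0.54 and -0.49 in CPM per kb. The exact permutation p of 0.031 is the smallest that 6 libraries allow, and the adjusted p was 0.156. Scaled to the start positions that are unique at 150 bases, the order of the other 4 changed to Taar7f, Taar7e, Taar7d and Taar7a, and Taar7b stayed last. How the counting treated reads shared between members was not tested.

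The subfamily supplied about as many of the assigned counts as all the other olfactory Taar genes together. Its share of the counts of the 14 olfactory Taar genes was 50.4%, 56.6% and 47.5% in the WT libraries and 52.3%, 51.4% and 55.2% in the het libraries. The means were 51.5% ± 4.64 and 53.0% ± 1.99 (SD, n = 3 each), and the difference of 1.46 percentage points was within the spread (exact two-sided permutation p = 0.7). Per kb in WT, the mean levels of the 5 members (2.54 to 3.98 CPM per kb) lay below that of Taar6 (4.64). They lay above those of Taar9 (2.37), Taar5 (2.23), Taar4 (1.96), Taar8b (1.11) and Taar3 (0.988), with Taar2 (2.89) at the level of Taar7e. These orders across genes were not tested. How reads shared between copies were counted is not known, for the Taar7 or for the Taar8 genes. The share and the order therefore describe assigned counts, and need not follow the numbers of neurons.

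The 4 homo libraries held 15 counts of olfactory Taar genes in all, and 0 of these 15 were from the subfamily, which allows a share of up to 20%. Taar4 had 9 of them, Taar2 3, and Taar3, Taar5 and Taar6 1 each. All of these genes lie on the Taar6 side of enhancer 2, and the Taar7, Taar8 and Taar9 rows beyond it were at 0 in every homo library. This contrast of sides rests on 15 counts and was not tested. Taar8a and Taar8c had only 10 and 24 counts over the WT libraries, so their 0 says little. Each homo library held only 2 to 5 Taar counts, so its own Taar7 share is hardly determined, with exact binomial 95% intervals from 0% up to 84.2% on 2 counts and 52.2% on 5.

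Counts were high enough to test 7 of the 9 other olfactory Taar genes, and all 7 fell in homo against WT and against het libraries (background 0.0698% lower in each). None (0 of 7) was called between het and WT (background 0%), with log2 fold changes of -0.49 to 0.24 and a median of -0.21. Taar6, the neighbour of Taar7a, was at 86.6% of WT in het libraries (95% interval 62.5% to 120%), and Taar9, beyond the Taar7 and Taar8 genes, at 116.8% (76.8% to 177.7%). Taar1, the family member that is not used as an olfactory receptor, had 0 counts in WT, 3 in het and 0 in homo libraries.

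Over the 10 libraries, the genes outside the subfamily whose log2 CPM was most like that of the Taar7 sum were Taar6 (Pearson r = 0.998), Taar9 (r = 0.998), Taar8b (r = 0.992), Taar5 (r = 0.983) and Taar3 (r = 0.978). The points share the homo libraries, which are at or near 0 for all of these genes, so r describes the split between those 4 libraries and the rest. The first gene outside the family was Stard6 (r = 0.944), which was not called in any contrast. It was picked as the highest r among all the genes tested outside the family, and a link to the Taar7 genes was not tested.

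No change was detected in the genes of the machinery that TAAR neurons share with other OSNs. The 16 genes listed were the cAMP cascade (Gnal, Gnb1, Gng13, Ric8b, Adcy3, Cnga2, Cnga4, Cngb1, Ano2, Pde1c, Slc24a4, Stoml3), the receptor transport proteins Rtp1, Rtp2 and Reep1, and Omp. None (0 of 16) was called in any of the 3 contrasts by edgeR, and none (0) had an unadjusted p under 0.05, against 2.41% of all genes tested in homo against WT, 1.92% in het against WT and 2.48% in homo against het. In homo against WT libraries their log2 fold changes ran from -0.32 to 0.17 with a median of -0.03, and in het against WT from -0.24 to 0.23 with a median of 0.02. Gnal was at -0.01 ± 0.09 (SE) in homo against WT and Rtp1, which carries receptors to the cell surface, at -0.04 ± 0.10. As these genes are expressed by all OSNs, their level says little of the rare TAAR neurons.

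The sequence before each start codon was read from RefSeq promoter windows (GRCm38.p6), which matched all 5 members and hold 250 bases before and 50 bases after the start of each gene model. Since these models begin at the start codon, the windows may hold transcribed leader as well as promoter. The homeodomain motif TAATTA and the Olf/Ebf motif in its short form CCCNNGGG were searched on both strands. Neither was present in any of the 5 windows (0 of 5). Of all 32851 windows, 5.29% and 13.7% held them, so their absence from 5 windows does not set the members apart. Both motifs are palindromic in these letters and do not overlap one another.

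Comparison of the windows showed a block of 16 bases that 4 members share, found after the sequences were seen. It begins 25 bases before the start codon in Taar7b, Taar7d, Taar7e and Taar7f and is absent from the window of Taar7a. Among the 32851 windows it occurred in these 4 alone. The last 30 bases before each start codon are shown with the shared block in capitals.
Taar7a (chr10:23993482-23993511, minus strand): caggattctttgaaaactggagtaatatac
Taar7b (chr10:23999909-23999938, plus strand): cttttTCTGAGGATCTTTGGAgtagcatac
Taar7d (chr10:24027192-24027221, plus strand): tttttTCTGAGGATCTTTGGAgtagcatac
Taar7e (chr10:24037584-24037613, plus strand): atttcTCTGAGGATCTTTGGAatagcatac
Taar7f (chr10:24049480-24049509, plus strand): attttTCTGAGGATCTTTGGAatagcatat

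Over the 250 bases before the start codon, Taar7d and Taar7e were 83.4% identical, Taar7d and Taar7f 78.5%, and Taar7e and Taar7f 73.7%. Pairs with Taar7a or Taar7b were 50.2% to 59.2% identical. The coding sequences, at 91.7% to 95.4%, were more alike than the sequences before them in each of the 10 pairs. With every member at 0 in homo libraries and wide intervals in het libraries, the expression data cannot show whether members with and without the block differ in response.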

How the data were processed

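MOE RNA of WT (n = 3), het (n = 3) and homo (n = 4) mice was analysed, with groups and replicate numbers from the sample titles. The authors made directional libraries after poly(A) selection, trimmed reads with Trimmomatic 0.36, aligned them to mm10 with HISAT2 2.1.0 and counted them per gene with featureCounts of Subread 1.6.2, and the deposited raw counts were the values used. The annotation, strand setting, read length and treatment of multi-mapped reads are not given in the sources used here. A normalized signal table was deposited as well, with counts divided by a DESeq2 1.20.0 size factor per library, used here for an alternative only. No column was without a sample.

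Counts were tested in R 4.3.3 with edgeR 4.0.16 (TMM, filterByExpr with minimum count 10 and minimum total count 15, robust quasi-likelihood F tests, genotype as the only term, all 10 libraries), with Benjamini-Hochberg adjustment over 17197 genes and a threshold of 0.05. For the sum, 1 row replaced the 5 members in the same model. The 17197 genes held 99.97% of the counts, and the scripts were tested on simulated data. CPM are counts scaled to a library total of 1000000. Shares and levels were compared by exact two-sided permutation tests with the smaller tail doubled (SciPy 1.17.1), whose smallest p is 0.1 for 3 against 3 libraries. Intervals are 95% Wald intervals around the unshrunk edgeR coefficients, and percentages of WT come from the same coefficients. Their standard errors were computed from the fitted means and dispersions, as edgeR gives none. The log2 fold changes printed are those of edgeR, which include its prior count. The floor was 3 counts per library. DESeq2 1.42.0, limma 3.58.1, other scalings and filters, a replicate block and leaving out each library were tried as alternatives. Nothing says whether a library is 1 animal or a pool, so p-values measure the spread between libraries, which may in part be technical.

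Same-numbered WT and het libraries deviated together (r = 0.326, 0.285 and 0.235 for numbers 1 to 3, over genes, on deviations from the group means). The labels do not say what a number marks, so the pairing comes from the data. WT and het libraries of unlike number were not compared in this way. Homo libraries did not pair in this way with WT (r = -0.0995 to -0.0122) or with het libraries (r = -0.148 to 0.159).

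The named genes were the 5 members, the 9 other olfactory Taar genes as a list with Taar1 apart, 16 signalling genes as a list, and the 5 genes outside the subfamily with the highest Pearson r to its sum. Members and lists were chosen with earlier results of these data known.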

Additional observations from a re-analysis of the deposited data

How the results depend on the processing

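All 5 Taar7 genes were called in homo against WT and against het libraries under every setting and without each library, and none was called in het against WT libraries in any of them. Fitted fold changes against the homo libraries, all at 0, depend on the prior count or pseudocount and are not compared. Over these settings the sum in het libraries stayed above the 1-allele value (unadjusted p from 1.48e-10 to 0.000123). With the replicate number as a block, the count of genes called rose from 12 to 19 in homo against WT and from 13 to 24 in homo against het libraries, and from 0 to 3 in het against WT when WT and het libraries were fitted alone. Homo libraries did not pair by number with WT or het libraries. The block changed no call on a Taar7 gene or on the sum. Pairing by replicate number, added after seeing the data, left the exact tests of the shares past no threshold, as 3 pairs allow no p under 0.25.

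Without a library in turn, the log2 fold change of the sum in het against WT ran from -0.106 to 0.0163, and the difference of the Taar7 share from -0.527 to 4.01 percentage points, so that both changed sign around 0 without passing a test. The sum was higher in het libraries without WT replicate 2, and the share was lower without WT replicate 3. Taar7a ran from -0.512 to -0.167, and single members near 0 changed sign as well, with Taar7b from -0.136 to 0.0777 and Taar7d from -0.219 to 0.196. Among shares of the sum, Taar7b ran from -1.70 to 1.53 points, Taar7d from -1.48 to 2.95 and Taar7f from -5.09 to 0.0465. Scaled to the mature OSN markers, a choice made after seeing the data, Taar7b in het against WT was at 0.00697.

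The order of the members turned in several pairs when levels were scaled to unique start positions, also chosen after seeing the data. At 50 bases the log2 ratio was 0.11 for Taar7a over Taar7d, -0.35 for Taar7a over Taar7e, -0.46 for Taar7d over Taar7e and -0.47 for Taar7d over Taar7f. At 150 bases it was -0.20 for Taar7a over Taar7e, -0.12 for Taar7d over Taar7e and -0.24 for Taar7d over Taar7f. Leaving out a library turned 5 pairs. Their log2 ratios ran from -0.17 to 0.0652 for Taar7a over Taar7d, from -0.0401 to 0.203 for Taar7a over Taar7e, from -0.168 to 0.0441 for Taar7a over Taar7f, from -0.0574 to 0.214 for Taar7d over Taar7f and from -0.195 to 0.0229 for Taar7e over Taar7f. Counts of 57 to 141 per member and library limit what single genes can show.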
